A study of Mus musculus with 12 samples.

Results

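The 35 genes described here are genes by which endothelial cells, the lining of blood vessels, are commonly recognised. They were taken by symbol from a deposited expression table of 23234 genes, and all 35 were found in it. The table came from mouse pancreatic islets of strain C57BL/6 that had been placed into inguinal subcutaneous white fat and sampled as grafts 60 or 120 days later, and from isolated islets that had not been transplanted. In order of time the 3 groups are isolated islets, grafts at day 60 and grafts at day 120, with 4 libraries each. The labels give the same strain and tissue for every library and name no transgene or drug. They do not describe the recipients, so vessels of the donor islet and vessels of the host cannot be told apart, and they do not say how a graft was separated from the fat. They also do not say whether libraries of a group came from separate animals, so each p-value measures only the spread between these libraries.

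Islets in the pancreas are supplied by a dense bed of fenestrated capillaries, through which they sense glucose and release hormones. Isolation cuts these vessels from the circulation, although endothelial cells remain inside the islet for some time. A graft is perfused again as capillaries grow in from the host and remaining donor endothelial cells join them. Capillaries of white fat are mostly continuous rather than fenestrated, and carry proteins that hand lipoprotein fat on to adipocytes. The endothelial state is kept up by ETS, SOX and bHLH transcription factors acting on junction, receptor and surface genes.

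Expression was measured by RNA sequencing of 10 ng of total RNA per library after SMARTer low-input amplification. The authors' values are FPKM (fragments per kilobase of transcript, scaled to the mapped fragments of the library), which take out gene length and can therefore be compared between genes. The sequencing depth is unknown, since the table gives no counts. FPKM summed over all genes was between 396769 and 786366 per library. The members held between 0.0309% and 0.0632% of that sum in isolated islets, between 0.0729% and 0.150% at day 60 and between 0.0587% and 0.123% at day 120. Isolated islet replicates 3 and 4 had the largest sums of all libraries, 684417 and 786366 FPKM, and the lowest shares, 0.0419% and 0.0309%. Beta cell markers were present in every library. The 6 markers summed to 17225 to 27734 FPKM in isolated islets, 29528 to 49475 FPKM at day 60 and 36348 to 47130 FPKM at day 120. Such a sum mainly follows the most abundant markers. On the log2(FPKM + 1) scale used below, their median difference from isolated islets was -0.24 at day 60, with 2 of 6 positive. At day 120 it was 0.82, with 6 of 6 positive. An exact 0 can be a failed estimate here, because the insulin gene Ins2 is listed at 0 in all 8 grafts and in 2 isolated islet libraries. The FPKM sums thus include Ins2 in some isolated islet libraries only, and the members' shares of them are not on a common base. In whole grafts and whole islets, fewer endothelial cells and less RNA of a gene per endothelial cell cannot be told apart.

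Promoters of 4 members are shown because they hold motifs of the ETS factors, to which the members Erg, Fli1 and Ets1 belong, and because the genes had different calls: Egfl7 and Calcrl rose in grafts at both times, while Emcn and Robo4 passed the test at neither time. The sequences are RefSeq's, build GRCm38.p6, whereas the authors' processing used mm9. Each shows the 250 bases before an annotated start, 5′ to 3′ on the gene's strand, with capitals on the letters that match a motif on either strand. The regions are chr2:26580833-26581082 on the plus strand for Egfl7 (the first of its 3 listed starts), chr2:84425267-84425516 on the minus strand for Calcrl, chr3:137340828-137341077 on the plus strand for Emcn, and chr9:37401722-37401971 on the plus strand for Robo4.
Egfl7: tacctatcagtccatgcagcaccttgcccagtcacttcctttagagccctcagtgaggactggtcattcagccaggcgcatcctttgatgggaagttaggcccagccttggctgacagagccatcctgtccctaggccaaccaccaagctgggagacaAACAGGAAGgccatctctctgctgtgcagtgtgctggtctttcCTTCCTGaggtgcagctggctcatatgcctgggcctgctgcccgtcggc
Calcrl: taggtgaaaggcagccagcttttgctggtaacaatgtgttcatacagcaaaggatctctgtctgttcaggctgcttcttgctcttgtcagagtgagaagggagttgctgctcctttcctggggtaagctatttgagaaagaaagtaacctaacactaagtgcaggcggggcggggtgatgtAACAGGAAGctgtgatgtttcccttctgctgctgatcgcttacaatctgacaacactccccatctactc
Emcn: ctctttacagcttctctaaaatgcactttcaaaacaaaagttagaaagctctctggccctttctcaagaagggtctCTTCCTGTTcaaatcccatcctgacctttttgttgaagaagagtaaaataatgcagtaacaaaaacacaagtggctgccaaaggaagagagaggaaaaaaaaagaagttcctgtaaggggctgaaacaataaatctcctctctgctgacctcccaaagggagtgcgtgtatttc
Robo4: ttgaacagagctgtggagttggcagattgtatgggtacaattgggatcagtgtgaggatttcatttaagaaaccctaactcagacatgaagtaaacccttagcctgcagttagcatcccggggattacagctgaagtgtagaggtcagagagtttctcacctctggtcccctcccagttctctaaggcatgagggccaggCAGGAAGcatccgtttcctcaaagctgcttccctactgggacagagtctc
The motifs searched on both strands were AACAGGAA (the core of the element bound jointly by FOX and ETS factors), CAGGAAG and CCGGAAG, in windows of 250 bases before to 50 bases after a start. The run AACAGGAAG holds the first motif and the second, which overlap. RefSeq listed 22 promoters for 17 of the 35 members. AACAGGAA was found in 3 of the 22, those of Egfl7, Calcrl and Emcn, while 2.65% of all 32851 promoters held it. CAGGAAG was found in 9 of the 22 against 13.3% of all promoters, and CCGGAAG in 1 of the 22, that of Lyl1, against 8.86%. At least 1 of the 3 motifs was in 10 member promoters, against 22.2% of all promoters. The motif was present in genes that rose and in genes that did not pass the test.

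The members covered a wide range of levels in isolated islets before any transplantation. A gene was called high there when its mean FPKM was at or above the upper quartile of the 13433 genes that were tested, 15.5 FPKM, and low when it was below their median of 6.17 FPKM. By that measure 6 members were high, 6 were in between and 23 were low. Plvap, the protein of the diaphragms that span capillary fenestrae, stood at 56.5, 70.4, 59.0 and 53.5 FPKM in the 4 isolated islet libraries. Eng, a co-receptor for TGF-beta family ligands, stood at 14.7, 36.2, 33.4 and 27.2 FPKM. Esm1, the proteoglycan endocan known from sprouting tip cells, stood at 30.7, 27.3, 24.3 and 25.1 FPKM. These 3 were the highest members by mean, and of them Plvap was above the other 2 in every isolated islet library. The other high members were the sialomucin Emcn, with 14.4 to 29.4 FPKM, the adhesion molecule Pecam1, with 12.6 to 23.8 FPKM, and the adherens junction cadherin Cdh5, with 6.47 to 23.1 FPKM. Esm1 lay above Pecam1 and Cdh5 without overlap, while the ranges of Eng, Emcn, Pecam1 and Cdh5 overlapped with each other, and those of Eng and Emcn with Esm1, so their order was not resolved. In between were Egfl7, S1pr1, Podxl, Ramp2, Cd34 and Robo4, with means of 6.51 to 11.2 FPKM. At the other end, 7 members were below 1 FPKM in every isolated islet library: Cldn5, Fli1, Sox17, Tal1, Lyl1, Vwf and Nos3.

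**Figure D1:**
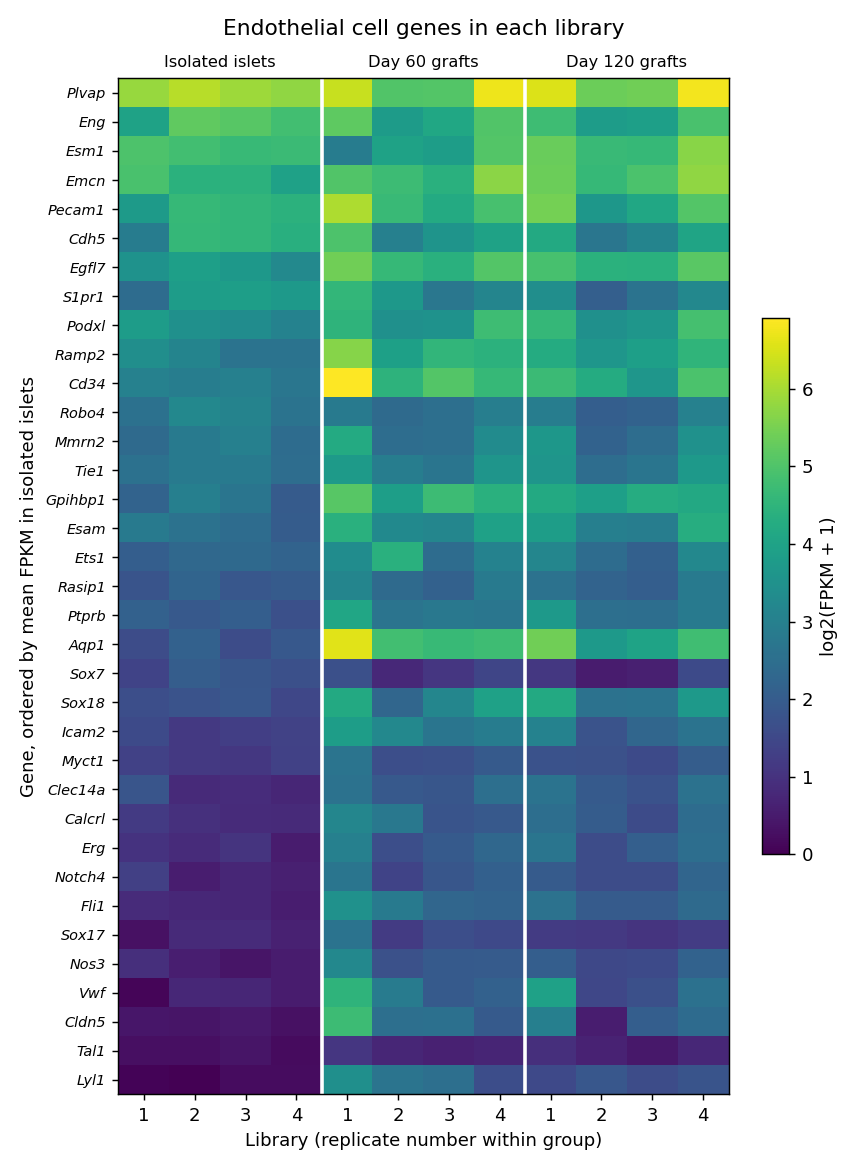
Heat map of log2(FPKM + 1) of the 35 endothelial cell genes (down, ordered by mean FPKM in isolated islets) in each of the 12 libraries (across, replicate numbers 1 to 4 within isolated islets, day 60 grafts and day 120 grafts). The upper genes, led by Plvap, are bright in all groups, while the lower genes, such as Cldn5, Vwf and Lyl1, are dark in isolated islets and brighter in the grafts.

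At day 60, 22 of the 35 members were higher in grafts than in isolated islets and none was lower, by limma over all 13433 tested genes with the adjusted p below 0.05. Over all tested genes, 31.3% were called higher and 12.3% lower, 43.7% in all. The day 60 counts by kind of member given further on stand beside these same shares. Groups did not overlap, with grafts higher, in 21 of the 34 tested members and in the untested Tal1, against 22% of all tested genes, and no member had every graft below every isolated islet library, against 9.01%. The increases were led by the water channel Aqp1, the tight junction protein Cldn5, the transcription factor Lyl1, the clotting protein Vwf and the surface glycoprotein Cd34. None of the 6 members that were high in isolated islets passed the test, against 3 of the 6 in between and 19 of the 23 low ones. Among all tested genes of the same 3 classes, 16.7%, 21.1% and 43.8% were called higher, so low genes were called higher more often in general. The classes use the isolated islet values that also enter the comparison, so this split is a description. Tal1 was not tested, since it did not reach 1 FPKM in 4 libraries. The 6 tested members below 1 FPKM in every isolated islet library entered the test only through the grafts. They were Cldn5, Fli1, Sox17, Lyl1, Vwf and Nos3.

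Of the 3 members that act in exchange across the capillary wall, Aqp1 and Gpihbp1 rose at day 60. Aqp1 had 95.2, 27.1, 24.04 and 26.2 FPKM in day 60 grafts, against 2.04, 3.46, 2.02 and 2.74 FPKM in isolated islets. Every graft was above every isolated islet library, and the difference was 3.39 on the log2(FPKM + 1) scale (SE 0.436, adjusted p 0.000295). Aqp1 is also a red blood cell protein, and the 4 red blood cell markers summed to 1830 to 28585 FPKM in day 60 grafts and 16.5 to 45.4 FPKM in isolated islets, with the highest sum in the same day 60 replicate 1 that had the highest Aqp1. The part of blood in the Aqp1 level was not tested. Gpihbp1, which carries lipoprotein lipase to the lumen of capillaries, had 33.9, 13.7, 25.8 and 19.8 FPKM in day 60 grafts, against 3.57, 6.95, 5.49 and 2.95 FPKM in isolated islets, again without overlap (log2 difference 2.07, SE 0.274, adjusted p 0.000325). Plvap had 79.9, 31.7, 32.5 and 106 FPKM in day 60 grafts. Day 60 replicates 1 and 4 lay above the whole range of isolated islets and replicates 2 and 3 below it, and the difference was -0.12 (SE 0.417, adjusted p 0.8288).

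Among the 5 junction and adhesion members, 3 rose at day 60. Cldn5 had 25.7, 4.78, 4.84 and 2.87 FPKM in day 60 grafts, against 0.241 to 0.395 FPKM in isolated islets (log2 difference 2.54, SE 0.569, adjusted p 0.00456). Icam2, a ligand of leukocyte integrins, had 13.4, 8.41, 5.47 and 6.48 FPKM in day 60 grafts, against 1.22 to 1.91 FPKM in isolated islets (1.84, SE 0.291, adjusted p 0.000853). Esam, an adhesion molecule of tight junctions, had 8.07 to 20.03 FPKM in day 60 grafts and 3.01 to 6.08 FPKM in isolated islets (1.23, SE 0.346, adjusted p 0.0133). In these 3 genes the groups did not overlap. Cdh5 had 30.4, 6.996, 11.0 and 14.8 FPKM in day 60 grafts, against 6.47, 23.1, 22.5 and 19.6 FPKM in isolated islets. Replicate 1 was the highest day 60 graft and the lowest isolated islet library, the groups overlapped, and the difference was -0.22 (SE 0.483, adjusted p 0.733). Pecam1 had 17.6 to 66.2 FPKM in day 60 grafts and 12.6 to 23.8 FPKM in isolated islets, and its difference of 0.62 did not pass the test (SE 0.434, adjusted p 0.261).

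Of the 5 other surface glycoproteins, Cd34 and Clec14a rose. Cd34, which is also carried by progenitor cells of the fat stroma, had 119, 21.0, 32.2 and 23.6 FPKM in day 60 grafts, against 5.57 to 7.26 FPKM in isolated islets (log2 difference 2.34, SE 0.454, adjusted p 0.00236). Day 60 replicate 1 stood far above the other 3 grafts, and the same library had the highest summed level of the 6 fibroblast markers, 4695 FPKM. The part of stromal cells in the Cd34 level was not tested. Clec14a, a C-type lectin, had 2.63 to 5.13 FPKM in day 60 grafts and 0.673 to 2.52 FPKM in isolated islets (1.17, SE 0.301, adjusted p 0.00879). Its extracellular matrix partner Mmrn2 did not pass the test (0.46, adjusted p 0.382), nor did Emcn (0.54, adjusted p 0.177) or the sialomucin Podxl (0.63, adjusted p 0.179).

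Of the 9 receptors and signalling proteins, 5 rose at day 60 and none fell. Calcrl and Ramp2 together form the receptor of adrenomedullin. Calcrl had 8.07, 5.85, 2.50 and 2.82 FPKM in day 60 grafts, against 0.757 to 1.25 FPKM in isolated islets (log2 difference 1.47, SE 0.306, adjusted p 0.00316). Ramp2 had 49.5, 14.2, 22.4 and 20.9 FPKM in day 60 grafts, against 5.16 to 9.76 FPKM in isolated islets (1.69, SE 0.334, adjusted p 0.00246). Both components of the receptor were thus higher in every graft than in any isolated islet library. The endothelial Notch receptor Notch4 rose by 1.21 (adjusted p 0.00528), the phosphatase Ptprb, which acts on the angiopoietin receptor, by 1.09 (adjusted p 0.0201), and Rasip1, a Ras-interacting protein needed for vessel lumens, by 0.66 with overlapping groups (adjusted p 0.0439). The orphan receptor Tie1 (0.56), the sphingosine phosphate receptor S1pr1 (0.07), the guidance receptor Robo4 (-0.21) and Eng (-0.24) did not pass the test, with adjusted p between 0.162 and 0.904.

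Transcription factors rose in 6 of 8 cases at day 60, with Sox7 and the untested Tal1 outside, against 31.3% of all tested genes called higher. Of those that rose, Fli1, Sox17 and Lyl1 passed the filter on low values only through the grafts. Erg had 7.12, 2.17, 2.88 and 3.99 FPKM in day 60 grafts, against 0.436 to 1.05 FPKM in isolated islets (log2 difference 1.39, SE 0.303, adjusted p 0.00397). Fli1 had 10.2, 6.21, 3.87 and 3.62 FPKM in day 60 grafts, against 0.456 to 0.792 FPKM in isolated islets (1.98, SE 0.269, adjusted p 0.000385). Ets1 had 9.36, 19.9, 4.47 and 7.43 FPKM in day 60 grafts, against 3.19 to 4.18 FPKM in isolated islets (1.08, SE 0.358, adjusted p 0.0279). All 3 ETS factors were thus higher, without overlap. Fli1 and Ets1 are also made by leukocytes, and the day 60 replicate 2 that had the highest Ets1 also had the highest summed level of the 6 lymphocyte markers, 99.5 FPKM, against 2.62 to 4.28 FPKM in isolated islets. The part of leukocytes in these levels was not tested.

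The SOX factors of the F group, Sox7, Sox17 and Sox18, act together in vessel formation, and Sox17 and Sox18 rose at day 60. Sox18 had 17.4, 3.83, 8.06 and 14.6 FPKM in day 60 grafts, against 1.75 to 2.64 FPKM in isolated islets (log2 difference 1.72, SE 0.428, adjusted p 0.00759). Sox17, known from arteries, had 1.31 to 5.15 FPKM in day 60 grafts and 0.251 to 0.819 FPKM in isolated islets (1.10, SE 0.261, adjusted p 0.00594). Sox7 had 2.23, 0.751, 1.15 and 1.71 FPKM in day 60 grafts, against 1.60, 3.15, 2.63 and 2.24 FPKM in isolated islets, a difference of -0.48 that did not pass the test (SE 0.266, adjusted p 0.155). Lyl1, a bHLH factor shared with blood cells, had 9.91, 5.32, 4.71 and 2.09 FPKM in day 60 grafts and at most 0.183 FPKM in isolated islets, where replicate 2 is listed at 0 (2.42, SE 0.296, adjusted p 0.000187). Its relative Tal1 had 0.564 to 1.12 FPKM in day 60 grafts and 0.148 to 0.315 FPKM in isolated islets.

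Of the 4 secreted factors and enzymes, 3 rose at day 60. Vwf had 21.6, 6.37, 2.90 and 3.45 FPKM in day 60 grafts, against 0.076 to 0.691 FPKM in isolated islets (log2 difference 2.34, SE 0.578, adjusted p 0.00729). Nos3, the endothelial nitric oxide synthase, had 2.30 to 8.43 FPKM in day 60 grafts and 0.318 to 0.915 FPKM in isolated islets (1.61, SE 0.305, adjusted p 0.00203). Egfl7, a matrix-bound factor of vessel sprouts, had 42.0, 23.8, 19.9 and 32.3 FPKM in day 60 grafts, against 8.45 to 13.9 FPKM in isolated islets (1.29, SE 0.252, adjusted p 0.00234). Esm1 had 6.54, 14.7, 13.5 and 32.4 FPKM in day 60 grafts, against 24.3 to 30.7 FPKM in isolated islets. Day 60 replicates 1, 2 and 3 lay below all isolated islets and replicate 4 above them, and the difference of -0.84 did not pass the test (SE 0.37, adjusted p 0.0813). Without day 60 replicate 4 it was -1.21 and passed (adjusted p 0.00845). The membrane protein Myct1 rose by 0.75 (SE 0.225, adjusted p 0.018).

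A few of the day 60 calls rested on single libraries. Leaving out any 1 of isolated islet replicates 1 to 4, day 60 replicates 1 and 4 or day 120 replicates 1 and 2 ended the call of Rasip1 (adjusted p 0.0532 to 0.0989). Leaving out any 1 isolated islet library or day 60 replicate 2 ended that of Ets1 (adjusted p 0.0517 to 0.0681), leaving out isolated islet replicate 3 that of Myct1 (adjusted p 0.051), and leaving out isolated islet replicate 4 that of Ptprb (adjusted p 0.0584). The scale also counts, because the median gene was 0.27 higher in day 60 grafts on the log2(FPKM + 1) scale and 0.30 higher in day 120 grafts. With upper-quartile scaling these medians were 0.13 and 0.17, with quantile normalization -0.038 and 0.018, and with equal sums of FPKM outside the hormone and acinar genes -0.065 and 0.12. The members called higher and lower at day 60 then numbered 20 and 1, 15 and 1, and 19 and 2. Over all 13433 tested genes these scalings called 5713, 5304 and 5204 at day 60, against 5865 as deposited. The share of higher genes among all genes called at day 60 was 71.8% as deposited and 60.6%, 45.2% and 45.1% under the same 3 scalings.

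**Figure D2:**
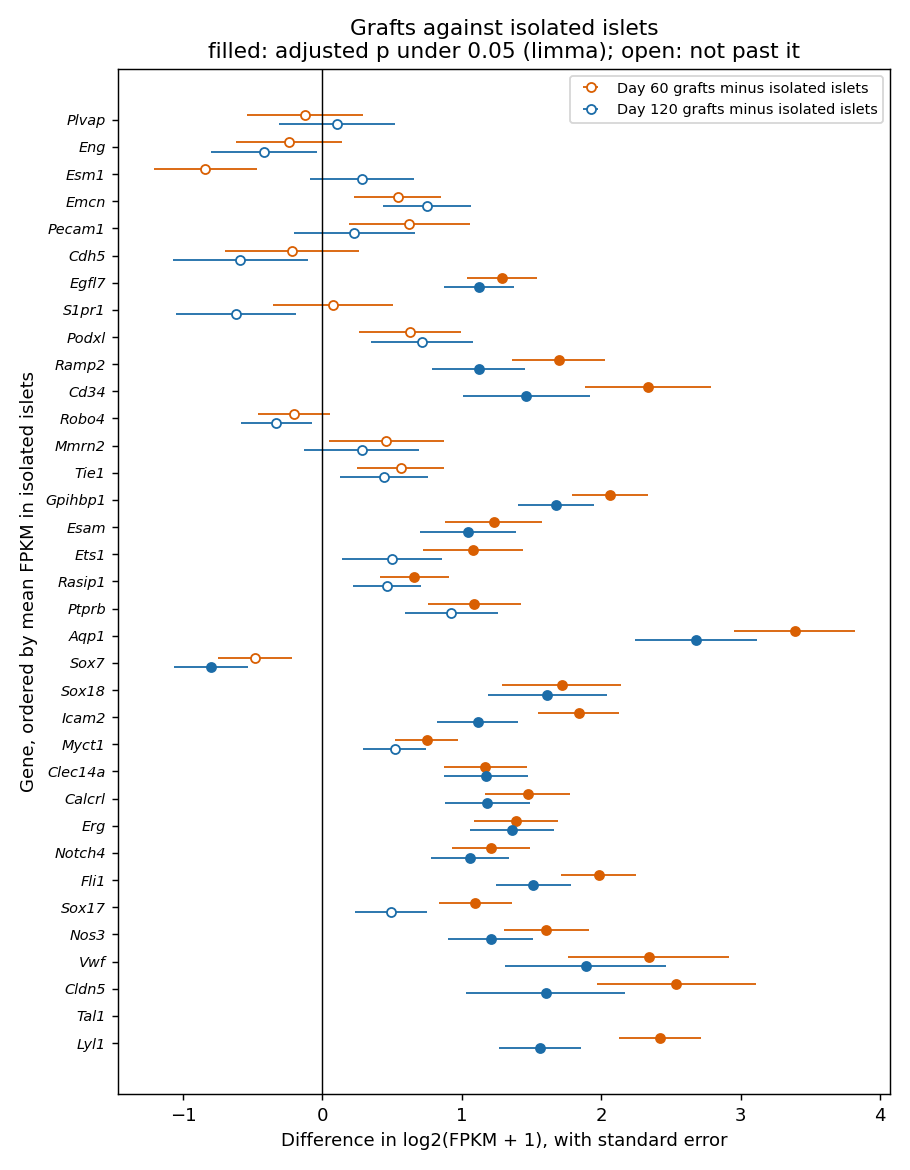
Difference in log2(FPKM + 1) between grafts and isolated islets (points, with standard error) for each tested member, day 60 in orange and day 120 in blue, ordered downwards by mean FPKM in isolated islets. Filled points passed the test. They lie mainly to the right in the lower part of the plot, and the 6 upper genes, Plvap to Cdh5, have open points only.

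At day 120, 17 of the 35 members were higher in grafts than in isolated islets and 1, Sox7, was lower. Over all tested genes, 24.3% were called higher and 7.03% lower, 31.4% in all. Groups did not overlap, with grafts higher, in 19 of the 34 tested members and in Tal1, against 28.3% of all tested genes, and none had every graft below every isolated islet library, against 7.24%. All 17 were also called higher at day 60, and since both comparisons use the same isolated islets, the values are given side by side rather than as separate evidence. The 5 members called at day 60 and not at day 120 were Ptprb, Rasip1, Ets1, Sox17 and Myct1, with log2 differences of 0.46 to 0.93 at day 120. The 11 called at neither time were Cdh5, Pecam1, Emcn, Podxl, Mmrn2, Tie1, Eng, S1pr1, Robo4, Esm1 and Plvap. None of the 6 members high in isolated islets was called, against 3 of the 6 in between and 14 of the 23 low ones called higher. Among all tested genes of these classes 9.62%, 19.1% and 34.3% were called higher.

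Of the exchange proteins, Aqp1 and Gpihbp1 were again the members that rose. Aqp1 had 41.8, 12.5, 15.2 and 26.7 FPKM in day 120 grafts, against 2.02 to 3.46 FPKM in isolated islets (log2 difference 2.68, SE 0.436, adjusted p 0.00234). Gpihbp1 had 17.5, 14.0, 18.5 and 16.9 FPKM in day 120 grafts, against 2.95 to 6.95 FPKM in isolated islets (1.67, SE 0.274, adjusted p 0.00232). The 4 day 120 grafts lay close together in Gpihbp1 and spread more in Aqp1, and neither gene overlapped with isolated islets. Plvap had 91.9, 40.1, 41.3 and 111 FPKM in day 120 grafts, with replicates 1 and 4 above and replicates 2 and 3 below the range of isolated islets (0.11, SE 0.417, adjusted p 0.864).

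Among junction and surface genes at day 120, Cldn5 had 6.95, 0.469, 3.18 and 4.29 FPKM in day 120 grafts, against 0.241 to 0.395 FPKM in isolated islets (log2 difference 1.60, SE 0.569, adjusted p 0.0482). Day 120 replicate 2 was close to the isolated islets. Cd34 had 25.2, 18.2, 11.3 and 30.1 FPKM in day 120 grafts (1.46, SE 0.454, adjusted p 0.0298), Icam2 2.43 to 7.38 FPKM (1.11, adjusted p 0.0152), Esam 6.65 to 18.6 FPKM (1.04, adjusted p 0.0376) and Clec14a 2.33 to 5.24 FPKM (1.18, adjusted p 0.0142). Clec14a had 0.673 to 2.52 FPKM in isolated islets, and it was the only member called higher at day 120 whose groups overlapped, through isolated islet replicate 1 and day 120 replicate 3. Cdh5 had 17.4, 5.52, 7.61 and 15.4 FPKM in day 120 grafts, overlapping with isolated islets only through isolated islet replicate 1 (-0.59, SE 0.483, adjusted p 0.356). Without that library and day 60 replicate 1 the difference was -0.99 (adjusted p 0.0361). Emcn had 23.98 to 53.8 FPKM in day 120 grafts and 14.4 to 29.4 FPKM in isolated islets, a difference of 0.75 that did not pass the test (adjusted p 0.082). It passed without isolated islet replicate 1, at 0.92 (adjusted p 0.0427).

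Of the receptors, Calcrl had 1.99 to 4.62 FPKM (log2 difference 1.18, adjusted p 0.0146), Ramp2 11.3 to 22.1 FPKM (1.12, adjusted p 0.0249) and Notch4 2.02 to 3.80 FPKM (1.06, adjusted p 0.0159) in day 120 grafts, each above the whole range of isolated islets. Ptprb differed by 0.93 (adjusted p 0.0516) and passed in the fit with the replicate number as a block (adjusted p 0.0159) and without day 60 replicate 1 (adjusted p 0.00877). Without the same library, Myct1 (0.52, adjusted p 0.0199) and Sox17 (0.49, adjusted p 0.0309) passed too. S1pr1 had 3.25 to 9.60 FPKM in day 120 grafts and 4.42 to 13.7 FPKM in isolated islets (-0.62, adjusted p 0.275).

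Transcription factors called at day 120 were Sox18 (log2 difference 1.61, adjusted p 0.0162), Lyl1 (1.56, adjusted p 0.00417), Fli1 (1.51, adjusted p 0.00335) and Erg (1.36, adjusted p 0.00818), all higher, and Sox7, lower. Sox7 had 1.18, 0.434, 0.521 and 1.92 FPKM in day 120 grafts, against 1.60, 3.15, 2.63 and 2.24 FPKM in isolated islets (-0.80, SE 0.266, adjusted p 0.0384). The groups overlapped between day 120 replicate 4 and isolated islet replicate 1. Leaving out any 1 of isolated islet replicates 2, 3 and 4 or of day 120 replicates 1, 2 and 3 ended this call (adjusted p 0.0536 to 0.111). Among secreted factors and enzymes, Vwf had 14.4, 1.79, 2.22 and 4.96 FPKM in day 120 grafts (1.89, SE 0.578, adjusted p 0.0283), Egfl7 19.8 to 34.0 FPKM (1.12, adjusted p 0.00848) and Nos3 1.85 to 3.49 FPKM (1.21, adjusted p 0.0133), all above the isolated islets. Esm1 had 39.1, 24.6, 23.6 and 50.5 FPKM in day 120 grafts and overlapped with isolated islets (0.28, adjusted p 0.572).

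Leaving out single libraries ended more calls at day 120. The number of members called in either direction, 18, was 10 without isolated islet replicate 2, 12 without replicate 3 and 9 without replicate 4. Over all tested genes the number called fell too, from 4212 to 1885, 1931 and 1839 in these fits. Calls of Cd34, Cldn5, Esam, Ramp2 and Vwf were ended by leaving out isolated islet replicate 2, 3 or 4, or day 120 replicate 1 or 4, Cd34 also by day 120 replicate 2, and Cldn5 also by isolated islet replicate 1, day 60 replicate 2 or 3, or day 120 replicate 3, with adjusted p of 0.0536 to 0.125 over these fits. Those of Clec14a and Sox18 were ended by leaving out isolated islet replicate 4 (adjusted p 0.0508 and 0.0521), that of Icam2 by replicate 2 (adjusted p 0.0501) and that of Notch4 by replicate 2 or 4 (adjusted p 0.0532 to 0.054). Members called higher and lower at day 120 numbered 16 and 1 with upper-quartile scaling, 7 and 1 with quantile normalization, and 16 and 1 with equal sums outside hormone and acinar genes. The share of higher genes among all genes called was 77.6% as deposited and 63.8%, 45.6% and 58.9% under these scalings. They called 3679, 3355 and 3108 of all 13433 tested genes at day 120. Aqp1, Egfl7, Fli1, Gpihbp1 and Lyl1 kept their calls at both times under every alternative in which they were tested. Of these, Fli1 and Lyl1 entered the main test only through the grafts. They were not tested with the stricter filter of 5 FPKM in 4 libraries.

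Between day 120 and day 60 grafts no member passed the test, and 4 had an unadjusted p below 0.05 in limma, against 10.1% of all tested genes. Over all tested genes 2 were called, or 0.0149%, and with the replicate number as a block likewise 0 members and 0.0149% of genes. No member's groups were without overlap, higher or lower, against 2.91% and 1.38% of all tested genes. Esm1 had the largest difference, with 39.1, 24.6, 23.6 and 50.5 FPKM in day 120 grafts, against 6.54, 14.7, 13.5 and 32.4 FPKM in day 60 grafts (log2 difference 1.12, SE 0.37, adjusted p 0.49). Esm1, Plvap and Podxl were higher at day 120 in each of the 4 pairs of the same replicate number, and Icam2 and Sox17 were lower in each. Such signs were not counted over all genes, so they are a description and no sign of a change in these members. The other 3 with an unadjusted p below 0.05 were lower at day 120, namely Lyl1 (-0.86), Icam2 (-0.73) and Sox17 (-0.60), each with adjusted p 0.49. Of the 34 tested members 5 had a positive difference, and the median was -0.26, against 0.031 over all tested genes. Without day 60 replicate 1 the members' median was -0.015.

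**Figure D3:**
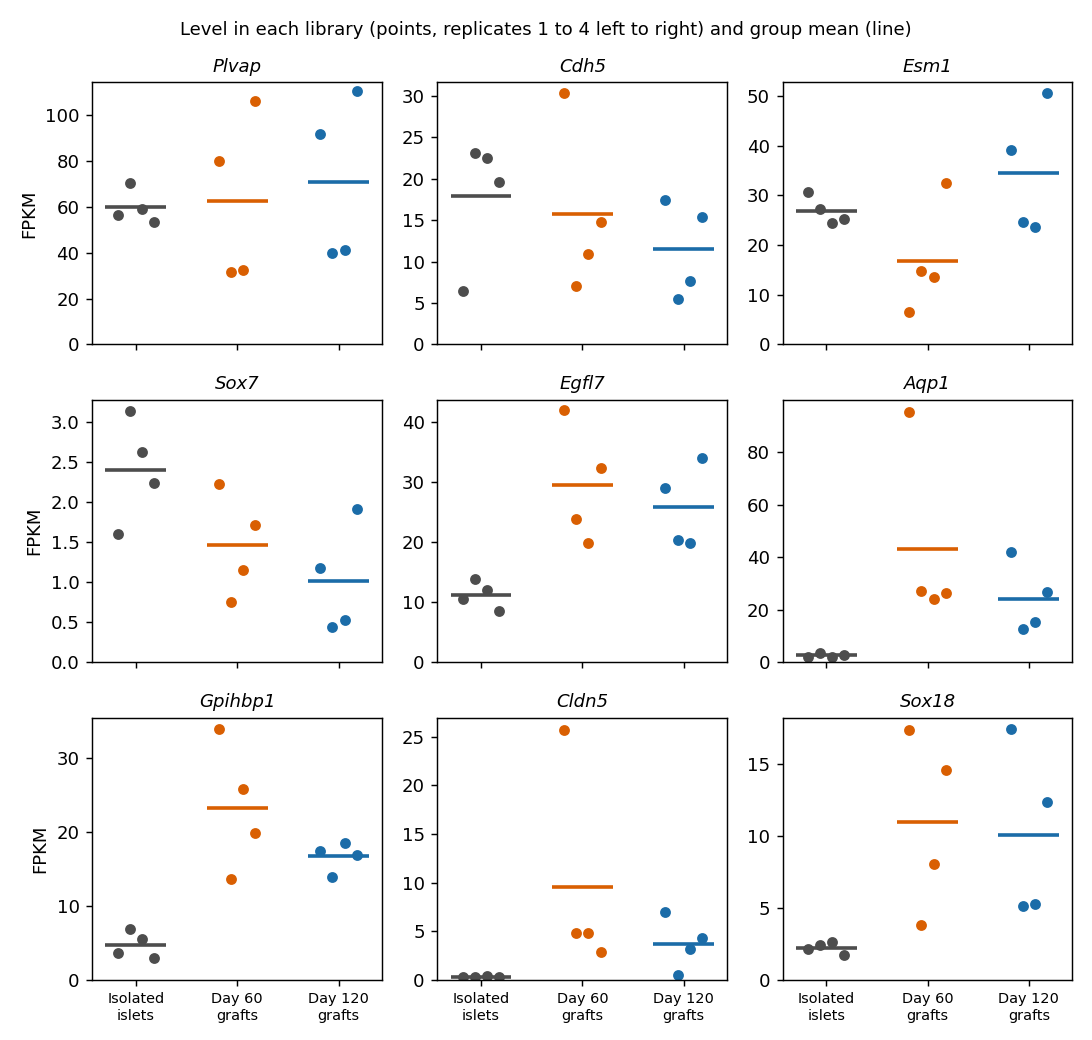
FPKM of 9 members in each library (points, replicates 1 to 4 from left to right) with the group mean (line), for isolated islets, day 60 grafts and day 120 grafts. Plvap is high in all groups, Esm1 lies below the isolated islets in 3 of the 4 day 60 grafts, and Egfl7, Aqp1, Gpihbp1, Cldn5 and Sox18 have every graft above every isolated islet library.

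Most members were highest in the same grafts. Day 60 replicate 1 was the highest of its group for 29 of 35 members, and lowest for 1, Esm1. Day 120 replicates 1 and 4 were highest for 15 and 18 members, and replicates 2 and 3 lowest for 21 and 13. In isolated islets, replicate 1 was lowest for 11 members, Cdh5, Pecam1, Eng and S1pr1 among them, and highest for 13. Replicate numbers 1 and 4 were thus the high grafts at day 120, and Plvap, Emcn, Podxl and Tie1 were highest in replicates 1 and 4 at day 60 as well. The members' summed FPKM was 243 to 313 in isolated islets, 337 to 870 at day 60 and 271 to 590 at day 120.

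Dividing each member by Cdh5 of the same library describes the mix of endothelial genes apart from the amount of endothelial RNA, as far as Cdh5 stands for it. Of 33 members with a ratio in every library, 12 had every day 60 graft above all isolated islets, against 5.87% of 13039 genes. At day 120, 15 did so, against 5.39%. The 33, the 12 and the 15 include Tal1, which was not tested, while the 13039 genes are all tested ones. No member had lower ratios without overlap, against 2.16% and 0.92% of genes. The median ratio of Aqp1 to Cdh5 was 0.145 in isolated islets, 2.66 at day 60 and 2.13 at day 120. That of Cldn5 was 0.0156 in isolated islets, 0.562 at day 60 and 0.339 at day 120, and that of Vwf was 0.0262 in isolated islets, 0.488 at day 60 and 0.323 at day 120. Plvap, with medians of 2.89 in isolated islets, 3.75 at day 60 and 6.30 at day 120, overlapped between all groups. At day 120 (5.29 to 7.25) it did so only through isolated islet replicate 1, with a ratio of 8.73. That library had Cdh5 at 6.47 FPKM, against 19.6 to 23.1 FPKM in the other isolated islets, which raises its ratios. Cdh5 itself was called lower in 1 alternative fit at each time. Erg, Fli1, Sox17, Sox18, Tal1, Cd34, Icam2, Nos3 and Gpihbp1 also had higher ratios without overlap at both times.

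A wider list of endothelial genes was set beside the members. Of its 69 genes, 64 were in the table and 62 were tested. At day 60, 32 were called higher and 2 lower, against 31.3% and 12.3% of all tested genes, and at day 120, 22 higher and 1 lower, against 24.3% and 7.03%. The smallest p values at day 60 belonged to Kank3 (log2 difference 1.93), the scavenger receptor Stab1 (2.21), the GTPase Gimap4 (2.92), Ly6a (4.46), Arhgef15 (1.61) and the surface protein Ecscr (1.80), all with adjusted p between 0.000102 and 0.00127. Ly6a belongs to a family of similar genes whose reads may be split between copies. It had 953 FPKM in day 60 replicate 1 and 66.8 to 164 FPKM in the other day 60 grafts. The part of other cell types in the levels of these genes was not tested. At day 120 they belonged to Kank3 (1.61), Icam1 (-2.70), the repressor Bcl6b (1.30), Arhgef15 (1.57), Nostrin (1.36), which traffics nitric oxide synthase, and Stab1 (1.46), with adjusted p between 0.000638 and 0.00697. Icam1, a leukocyte adhesion molecule induced by inflammation, averaged 2.89 ± 1.99 FPKM in day 120 grafts and 21.6 ± 1.44 FPKM in isolated islets (SD, n = 4 each, limma adjusted p 0.000954). Icam2 of the same family was higher in grafts. The day 120 count of 23 in either direction was 12, 13 and 12 without isolated islet replicates 2, 3 and 4, and 14 without day 120 replicate 4. Over all tested genes these fits called 1885, 1931, 1839 and 2557, against 4212 in the main fit.

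Partners of the members were followed too. Adrenomedullin (Adm), the ligand of Calcrl with Ramp2, was higher at day 60 (log2 difference 1.45, adjusted p 0.0122) and did not pass at day 120 (0.65, adjusted p 0.221). Lpl, the lipase bound by Gpihbp1, averaged 303 ± 365 FPKM in day 60 grafts and 28.8 ± 1.96 FPKM in isolated islets (SD, n = 4 each, 2.53, limma adjusted p 0.0105), and 63.6 ± 28.9 FPKM in day 120 grafts (1.02, adjusted p 0.254). Lpl is also an adipocyte gene. The Notch ligands Dll4 (0.51, adjusted p 0.0477) and Jag1 (0.90, adjusted p 0.0221) were higher at day 60, and Dll4 (0.67, adjusted p 0.0226) at day 120. The day 60 call of Dll4 was lost with the replicate number as a block (adjusted p 0.0651) and on leaving out any 1 of 10 libraries, all but day 60 replicate 2 and day 120 replicate 4 (adjusted p 0.0577 to 0.106). Its day 120 call was lost without isolated islet replicate 2, 3 or 4 or day 120 replicate 4 (adjusted p 0.053 to 0.0703), and that of Jag1 without isolated islet replicate 2 (adjusted p 0.0505). The VEGF receptors Kdr and Flt1, the Eng partner Acvrl1 and Cd93, a binding partner of Mmrn2, passed at neither time. Kdr averaged 19.2 ± 3.39 FPKM in isolated islets, 12.7 ± 5.06 FPKM at day 60 and 18.8 ± 8.50 FPKM at day 120 (SD, n = 4 each). It passed at day 60 without day 60 replicate 4 (-0.83, adjusted p 0.0425), and Acvrl1 passed there without day 60 replicate 2 or 3 (0.95 to 0.96, adjusted p 0.0464 to 0.0467).

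Markers of other cells also moved between these groups. Over all tested genes, 31.3% were called higher and 12.3% lower at day 60, and 24.3% and 7.03% at day 120. The 8 adipocyte markers, among them Adipoq, summed to 35.4 to 42.1 FPKM in isolated islets, 121 to 3646 FPKM at day 60 and 106 to 356 FPKM at day 120. Of the 7 tested, 6 and 5 were called higher at day 60 and day 120. The 6 fibroblast markers summed to 14.3 to 18.6 FPKM in isolated islets, 638 to 4695 FPKM at day 60 and 250 to 640 FPKM at day 120, with 6 called higher at each time. The macrophage markers, 6 of 7 found, summed to 37.2 to 59.9 FPKM in isolated islets, 371 to 3416 FPKM at day 60 and 240 to 419 FPKM at day 120, with 6 and 5 called higher. All 4 libraries of each graft group were above all isolated islets in these lists, and day 60 replicate 1, which was highest for most members, had the highest sum of the adipocyte, fibroblast, macrophage and red blood cell lists at day 60.

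The 7 pericyte and smooth muscle markers, of cells that wrap capillaries and small vessels, summed to 34.6 to 46.1 FPKM in isolated islets, 67.9 to 208 FPKM at day 60 and 41.6 to 96.5 FPKM at day 120, with 3 and 1 called higher. The 6 lymphatic endothelial markers summed to 12.7 to 20.04 FPKM in isolated islets, 15.1 to 41.1 FPKM at day 60 and 14.6 to 55.5 FPKM at day 120. Of the 5 tested, 2 were higher and 1 lower at each time. Red blood cell markers summed to 1915 to 21683 FPKM in day 120 grafts, with 4 of 4 called higher at each time. The 5 platelet and megakaryocyte markers, of a lineage that also stores Vwf, summed to 3.58 to 5.29 FPKM in isolated islets, 19.1 to 298 FPKM at day 60 and 25.3 to 168 FPKM at day 120. Of the 4 tested, 1 and 2 were called higher. Lymphocyte markers summed to 3.38 to 99.5 FPKM in day 60 grafts and 3.34 to 10.3 FPKM in day 120 grafts. Only 3 of the 6 were tested, with 2 and 0 of these called higher.

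The 5 acinar markers of pancreatic exocrine tissue moved the opposite way, with 3904 to 45372 FPKM in isolated islets, 0.117 to 1.42 FPKM at day 60 and 0.132 to 0.544 FPKM at day 120, and all 5 were lower at both times. Of them Prss2 is listed at 0 in all day 120 grafts. Of the 5 duct markers 4 were tested, and 2 of these were lower at each time. The 4 mesothelial markers summed to 5.64 to 15.3 FPKM in isolated islets and to at most 0.85 FPKM in day 60 grafts and 2.29 FPKM in day 120 grafts. Only 1 of them was tested, and it was called lower at each time. Upk3b is listed at 0 in all day 60 grafts. The part that any of these cells has in the members' levels was not tested.

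**Figure D4:**
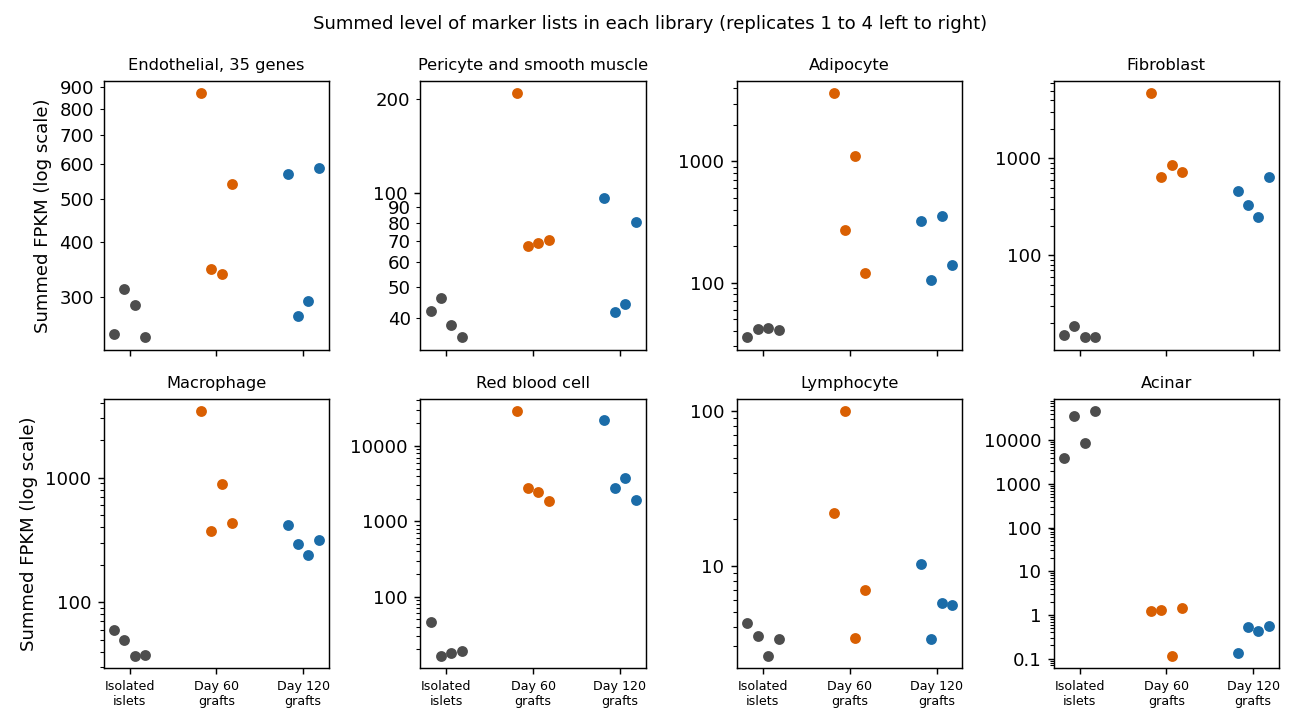
Summed FPKM of 8 marker lists in each library (points on log scales, replicates 1 to 4 from left to right) for isolated islets, day 60 grafts and day 120 grafts. Day 60 replicate 1 is the highest day 60 graft in the endothelial, pericyte, adipocyte, fibroblast, macrophage and red blood cell lists, and acinar markers reach at most 1.42 FPKM in grafts, against 3904 to 45372 FPKM in isolated islets.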

How the data were processed

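Libraries were made from 10 ng of total RNA with the SMARTer Ultra Low Input kit and 15 cycles of PCR, per the labels' protocols. The authors deposited 1 table of FPKM per gene and library, made with TopHat2 and Cufflinks 2.1.1 on mm9, per the submitters' processing notes. Gene annotation and options are not given in the sources used here. Depth is unknown, so no counting error is given. Low-input amplification and the missing common total limit how far libraries can be compared.

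From the table, log2(FPKM + 1) was fitted with limma 3.58.1 (R 4.3.3, trend and robust, group as the only term) over all 12 libraries and the 13433 genes with at least 1 FPKM in at least 4 libraries, leaving 9801 genes untested. Differences are on this scale, which understates changes of low genes. P-values are two-sided with Benjamini-Hochberg adjustment over all tested genes, threshold 0.05. The fit recovered most of the larger changes put into simulated data with independent noise for each gene. The simulation had no outlying library and no shift of whole libraries, so it does not cover these. Level classes, ratios to Cdh5 and motif shares were described without a test.

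Replicate numbers were checked for pairing by correlating deviations from group means. Between day 120 and day 60 grafts every same-numbered pair correlated (r 0.18 to 0.442), while pairs of unlike number had r of -0.383 to 0.0982. Replicate 3 had the weakest same-numbered pair. Deviations cancel within a group, so these values are not independent of each other. The numbers were taken from the data as pairing these groups. Grafts and isolated islets of the same number did not correlate (r -0.0699 to 0.0199 at day 60 and -0.0784 to 0.0154 at day 120).

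The members and lists were chosen with earlier results of these data known. All members were accounted for, and of the other endothelial list up to 6 genes per comparison with the smallest p were named, with 8 partners whatever their result. Alternatives were pseudocounts of 0.1 and 5, other filters, 3 scalings, a replicate block, fits of only the groups compared and leaving out libraries.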

Additional observations from a re-analysis of the deposited data

Results flagged for a closer look

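In groups of 4 libraries, a library was singled out when its gap to the nearest other, divided by the group's range, was above Dixon's 95% critical value for 4 samples. Of 105 groups checked (35 members in 3 groups) 7 met this, a share near the 1 in 20 that chance gives. Such flags were not counted over all genes, so they are a description. Day 60 replicate 1 was high for 5 members: Aqp1 at 95.2 FPKM with the other 3 at 24.04 to 27.1 FPKM, Cd34 at 119 FPKM with the others at 21.0 to 32.2 FPKM, Cldn5 at 25.7 FPKM with the others at 2.87 to 4.84 FPKM, Ptprb at 15.9 FPKM with the others at 5.30 to 5.79 FPKM, and Nos3 at 8.43 FPKM with the others at 2.30 to 2.93 FPKM. Isolated islet replicate 1 was high for Clec14a, at 2.52 FPKM with the other 3 at 0.673 to 0.84 FPKM, and low for S1pr1, at 4.42 FPKM with the others at 12.2 to 13.7 FPKM. Without both libraries together, 20 members were called higher and 2 lower at day 60, and 20 higher and 3 lower at day 120. Calls over all genes rose as well, to 7623 of 13159 at day 60 and 7437 of 13159 at day 120. In the main fit they were 5865 and 4212 of 13433.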

How the results depend on the processing

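No difference that passed the test changed sign under any alternative. Differences that did not pass could change sign, such as S1pr1 (-0.61 to 0.34) and Plvap (-0.53 to 0.13) at day 60, as did the median gene at day 60 under quantile normalization and equal sums (-0.038 and -0.065). Of the 22 members called at day 60, 15 kept the call under every alternative in which they were tested, and of the 18 at day 120, 5 did. Among the 15, Calcrl, Cldn5, Erg, Fli1, Lyl1, Nos3 and Vwf were not tested with the filter of 5 FPKM. Of these, Cldn5, Fli1, Lyl1, Nos3 and Vwf entered the main test only through the grafts. With a filter of 5 FPKM in 4 libraries, which tests 22 members, 10 members were called at day 60 and 8 at day 120. Of all 9139 genes tested with that filter, 3932 and 2982 were called, shares close to those of the members. Under it 15 and 12 of the other endothelial genes were called, and 3 members counted as high in isolated islets. With quantile normalization 8 members were called at day 120, and 22 and 15 of the other endothelial genes at day 60 and day 120. Over all 13433 tested genes it called 5304 at day 60 and 3355 at day 120. Leaving out 1 library at a time gave 19 to 22 members at day 60, 9 to 21 at day 120 and 0 between day 120 and day 60. The same fits gave 26 to 38, 12 to 31 and 0 of the other endothelial genes, and 6 members high in isolated islets. Over all genes they called 4074 to 6861 at day 60 and 1839 to 6004 at day 120. Esm1 at day 60 also passed with upper-quartile scaling (adjusted p 0.0482) and equal sums outside hormone and acinar genes (-1.22, adjusted p 0.04). Sox7 passed at day 60 with quantile normalization (-0.95, adjusted p 0.0197) and with those equal sums (-0.76, adjusted p 0.03), and lost its day 120 call without a filter (adjusted p 0.0519). The cause of these moves was not tested.

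The replicate number as a block pairs the day 120 and day 60 grafts. It also ties each isolated islet library to the grafts of its number, although these did not correlate. With it, 22 members were called at day 60, 19 at day 120 and 0 between day 120 and day 60. Of the other endothelial genes 37, 26 and 0 were called. Over all tested genes that fit called 5804 at day 60 and 4254 at day 120. Beside Ptprb at day 120 and Dll4 at day 60 the block changed no call of a member or partner. Depth is unknown, so the precision of members near or below 1 FPKM, such as Tal1 and Lyl1 in isolated islets, cannot be given.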
